A study of Mus musculus with 6 samples.

Results

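MHC class I molecules carry peptides from the inside of a cell to its surface, where CD8 T cells read them. Expression of 10 genes of this system was compared between large and small B16 melanomas: the heavy chains H2-K1, H2-D1, H2-T23, H2-Q7 and H2-M3, the light chain B2m, the peptide transporter subunits Tap1 and Tap2, the loading factor Tapbp and the trimming peptidase Erap1. The genes were taken by name from the array platform's annotation. Of the 10, 9 had a probe with a detection p-value below 0.05 on 3 or more of the 6 arrays, out of 10523 genes tested in all. The names at hand covered probes of the authors' processed set (20346 of the 45281 on the array), 17300 of them with 1 gene symbol. Erap1 had 0 probes among these and was not analysed here.

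The samples were B16 tumors, a transplantable mouse melanoma line, grown in C57BL/6 mice, the strain from which the line derives. All mice received 400000 B16 cells, and tumors were taken on day 8, when some measured 70 to 80 mm2 (large) and others 10 to 20 mm2 (small). The study asked how the transcriptomes of these size classes differ. Each group had 3 tumors with 1 array each. No treatment, genetic change or age of the mice is given in the labels. The samples are described as whole tumors freed of adjacent tissue, so the RNA of melanoma cells and of host cells was measured together. Skeletal muscle and keratinocyte markers were detected too, as given below. How fully adjacent tissue had been removed was not tested. In such bulk samples, fewer cells of a type and less RNA per cell cannot be told apart. The labels number the tumors 1 to 3 in each group but say nothing on litters or inoculation batches, so the p-values rest on the spread among these tumors, which may be partly technical.

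In the class I pathway, proteasomes cut proteins into peptides, the TAP transporter (Tap1 with Tap2) moves them into the endoplasmic reticulum, tapasin (Tapbp) holds empty class I molecules at the transporter, and ERAAP (Erap1) trims the peptides to length. A heavy chain then leaves for the surface with beta-2 microglobulin (B2m). H2-K1 and H2-D1 encode the classical, highly polymorphic chains, and H2-T23 (Qa-1), H2-Q7 (Qa-2) and H2-M3 encode non-classical chains. Interferon-gamma and the coactivator Nlrc5 are known inducers of the system, and B16 cells are known for low surface class I that interferon-gamma raises.

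The class I promoters carry a shared set of elements, so the RefSeq promoters (assembly GRCm38.p6, from 250 bases before to 50 after the annotated start) of 3 heavy chains, of B2m and of Tap1 are printed 5′ to 3′ on each gene's strand. Capitals mark matches, on either strand, to the motifs described after them. The promoters lie at chr17:34000284-34000583 (minus strand, H2-K1), chr17:35262844-35263143 (plus, H2-D1), chr17:35438905-35439204 (plus, H2-Q7), chr2:122147437-122147736 (plus, B2m) and chr17:34187306-34187605 (plus, Tap1).
H2-K1: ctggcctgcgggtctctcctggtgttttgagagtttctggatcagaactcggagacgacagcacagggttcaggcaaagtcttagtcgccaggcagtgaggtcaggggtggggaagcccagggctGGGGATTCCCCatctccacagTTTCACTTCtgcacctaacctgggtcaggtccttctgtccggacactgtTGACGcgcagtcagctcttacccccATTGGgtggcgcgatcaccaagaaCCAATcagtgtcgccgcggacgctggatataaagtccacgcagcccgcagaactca
H2-D1: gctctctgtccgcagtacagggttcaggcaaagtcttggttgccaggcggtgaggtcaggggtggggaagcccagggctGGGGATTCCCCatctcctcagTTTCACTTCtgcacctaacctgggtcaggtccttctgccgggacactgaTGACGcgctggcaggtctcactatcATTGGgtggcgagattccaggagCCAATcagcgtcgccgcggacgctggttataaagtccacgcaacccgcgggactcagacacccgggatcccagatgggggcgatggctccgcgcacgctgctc
H2-Q7: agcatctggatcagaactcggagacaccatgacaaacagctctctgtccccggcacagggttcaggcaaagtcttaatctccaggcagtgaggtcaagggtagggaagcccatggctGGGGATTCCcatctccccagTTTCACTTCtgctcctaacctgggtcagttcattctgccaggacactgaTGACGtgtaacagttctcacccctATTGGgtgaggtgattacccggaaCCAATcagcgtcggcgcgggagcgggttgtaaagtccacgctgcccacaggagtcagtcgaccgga
B2m: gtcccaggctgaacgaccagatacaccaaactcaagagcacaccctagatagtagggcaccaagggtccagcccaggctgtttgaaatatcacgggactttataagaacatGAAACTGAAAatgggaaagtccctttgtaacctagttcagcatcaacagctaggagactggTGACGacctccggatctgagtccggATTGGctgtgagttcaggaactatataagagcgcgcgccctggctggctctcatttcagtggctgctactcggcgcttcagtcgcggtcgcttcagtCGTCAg
Tap1: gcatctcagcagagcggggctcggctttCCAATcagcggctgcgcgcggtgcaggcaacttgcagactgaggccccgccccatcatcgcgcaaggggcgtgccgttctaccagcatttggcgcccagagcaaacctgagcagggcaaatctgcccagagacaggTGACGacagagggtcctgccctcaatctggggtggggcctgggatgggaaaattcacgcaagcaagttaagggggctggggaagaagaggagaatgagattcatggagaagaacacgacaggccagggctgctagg

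Promoters were at hand for 9 of the 10 genes, in 10 records because H2-K1 has a pair of annotated starts. Tap2 was not among them. The motifs searched on both strands were TGACG, which cyclic AMP response factors bind, the CCAAT box, the STAT palindrome TTCNNNGAA, the core of the interferon-stimulated response element, and the full palindromic kappa B site of class I enhancers. A shorter kappa B motif, GGGGATTCC, which lies within the full site, and the class I interferon element TTTCACTTC were added after the promoters had been read. GGGGATTCC was found in H2-K1, H2-D1 and H2-Q7 and in 0.25% of all 32851 promoters of the same length. The full kappa B site was found in H2-K1 and H2-D1 and in 0.0304% of all promoters. TTTCACTTC was found in H2-K1, H2-D1, H2-Q7 and H2-M3 and in 0.505% of all promoters. The response element core was found in H2-T23, B2m and Erap1 and in 3.44% of all promoters, and the STAT palindrome in H2-M3 and in 8.3%.

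TGACG was found in 6 of the 9 genes with a promoter, against 20.8% of all promoters, and CCAAT in 8 of the 9, against 37.4%. In 5 genes TGACG was followed by an inverted CCAAT box on the gene's strand within 20 to 30 bases, an arrangement added after reading the promoters and held by 0.25% of all promoters. The distance was 25 bases in H2-K1, H2-D1, H2-M3 and B2m and 24 in H2-Q7. Distances here run from the first base of TGACG to the first base of the inverted box, ATTGG. Of these genes only B2m lies on chromosome 2, and the others lie on chromosome 17. The others are heavy chains of one gene family, so their matches cannot be counted as separate occurrences beside the share of all promoters. A match describes the sequence only. The arrangement was absent from this window in H2-T23, Tap1, Tapbp and Erap1. Its part in the expression changes was not tested.

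Both subunits of the peptide transporter and 3 of the heavy chains fell in large tumors. Tap1 and Tap2 fell most, by 3.97-fold and 3.52-fold, then H2-K1 by 2.64-fold, H2-T23 by 2.32-fold and H2-Q7 by 2.21-fold (limma, adjusted p = 0.0324 to 0.0399, n = 3 per group). H2-D1, H2-M3, B2m and Tapbp had negative log2 fold changes that did not pass the test. Thus 5 of the 9 tested genes were called lower at an adjusted p under 0.05, where 1.68% of all genes tested were, and 0 were called higher, where 0.789% of all genes were. The median log2 fold change of the 9 genes was -1.15, against -0.00 over all genes tested. In 7 of the 9 genes every large tumor lay below every small tumor, as in 13.6% of all genes. The calls depended on single arrays: leaving out any 1 large tumor, or small replicate 3, left 0 of the 9 genes called. Leaving out small replicate 2 left 3 (H2-T23, Tap2 and, newly, H2-M3), and leaving out small replicate 1 left the 5. With other normalizations the split over all genes shifted, from 83 higher and 177 lower to 182 and 226 with quantile normalization alone.

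**Figure D1:**
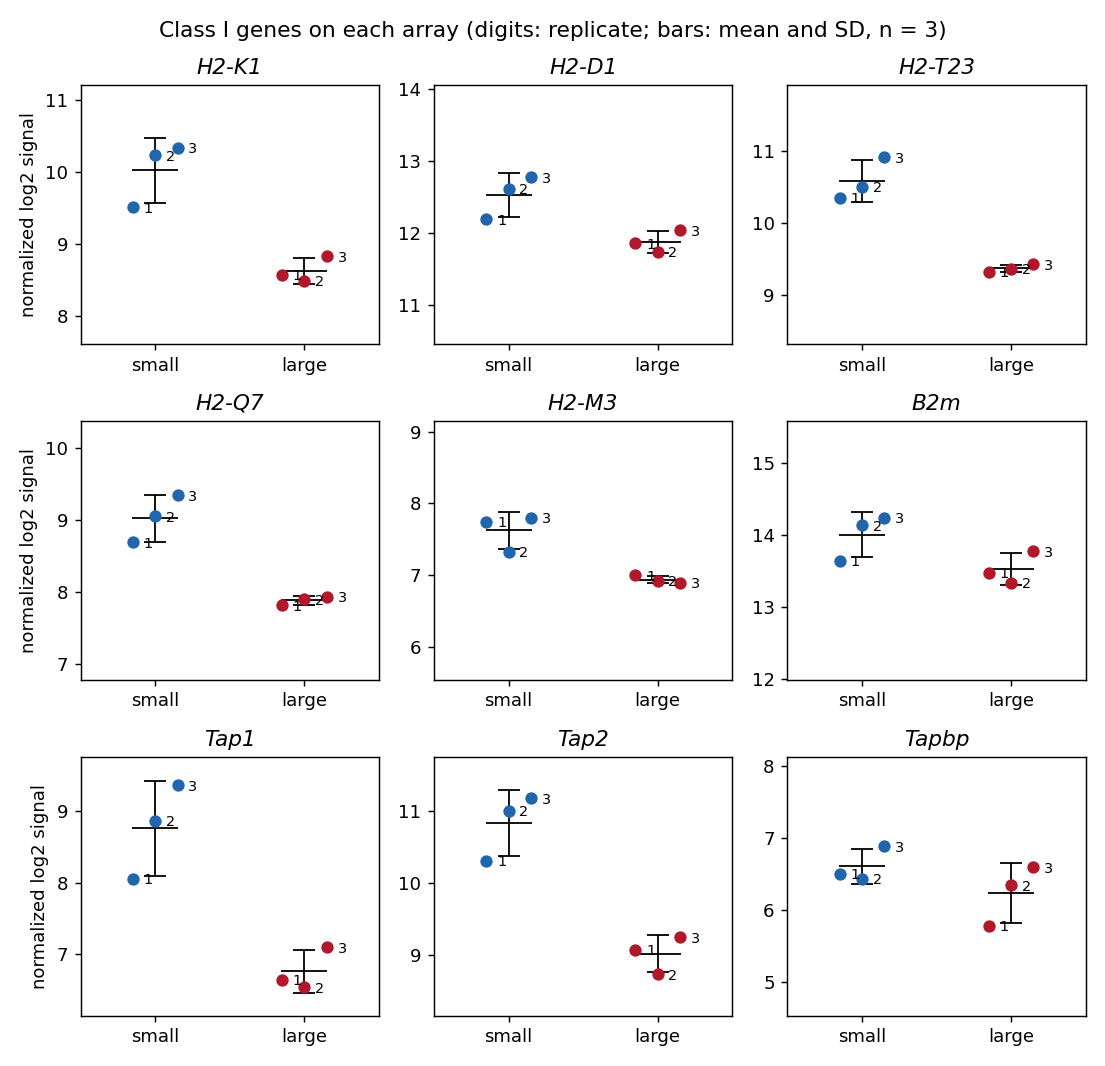
Normalized log2 signal of the 9 tested class I genes on each array, with small tumors in blue and large tumors in red, digits for the replicate and bars for the mean and SD (n = 3). Each panel spans the same number of log2 units. The groups are apart in 7 panels and overlap for B2m and Tapbp.

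Tap1 encodes one subunit of the transporter that carries peptides into the endoplasmic reticulum. Its normalized log2 signals were 6.65, 6.55 and 7.10 in large replicates 1 to 3 and 8.05, 8.86 and 9.35 in small replicates 1 to 3. The lowest small tumor was thus above the highest large tumor, and small tumors were more spread, with an SD of 0.66 against 0.29. Large minus small, its log2 fold change was -1.99 ± 0.33 (SE, n = 3 per group; limma, adjusted p = 0.0399). Of all 10523 genes, 33 had a log2 fold change this low or lower, Tap1 included.

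Tap2, the partner of Tap1, had log2 signals of 9.07, 8.73 and 9.24 in large tumors and 10.31, 11.00 and 11.17 in small tumors. The groups did not overlap, and small replicate 1 was again the lowest of its group. Tap2 had a log2 fold change of -1.81 ± 0.25 (SE, n = 3 per group; limma, adjusted p = 0.0324). On chromosome 17 the transporter genes lie interleaved with proteasome genes, in the order Psmb9, Tap1, Psmb8, Tap2, and all 4 were called lower.

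Tapbp encodes tapasin, the bridge between class I molecules and the transporter. Its log2 signals were 5.78, 6.34 and 6.59 in large tumors and 6.50, 6.44 and 6.88 in small tumors. The groups overlapped, since large replicate 3 was above small replicates 1 and 2. The log2 fold change was -0.37 with a 95% confidence interval from -0.92 to 0.19 (limma, adjusted p = 0.393, n = 3 per group). A second Tapbp probe, detected on all 3 small arrays but 1 large array, was at -0.18 (adjusted p = 0.436 over all probes).

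H2-K1 encodes the K heavy chain, one of the classical presenters of B16 antigens in this strain. Its log2 signals were 8.57, 8.49 and 8.83 in large tumors and 9.51, 10.24 and 10.34 in small tumors. The groups did not overlap, and small replicate 1 lay nearest to the large tumors. H2-K1 had a log2 fold change of -1.40 ± 0.23 (SE, n = 3 per group; limma, adjusted p = 0.0399). A dimmer H2-K1 probe moved the same way but did not pass the test, at -0.67 (adjusted p = 0.178 over all probes), and the mean of both probes was at -1.03 (adjusted p = 0.0536).

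H2-D1 encodes the D heavy chain. Its brightest probe had log2 signals of 11.86, 11.74 and 12.04 in large tumors and 12.20, 12.62 and 12.78 in small tumors. The groups did not overlap, but small replicate 1 was only slightly above large replicate 3. The log2 fold change was -0.65 ± 0.17 (SE, n = 3 per group), with a 95% confidence interval from -1.06 to -0.24 and an adjusted p of 0.0986 in limma. The other H2-D1 probes were at -0.62 (adjusted p = 0.191) and at -0.95 (adjusted p = 0.0364), so that the dimmest of the 3 probes passed the test over all probes and the others did not.

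Among the non-classical chains, H2-T23 encodes Qa-1, which presents leader peptides of other class I chains to the inhibitory NK cell receptor CD94/NKG2A. Its log2 signals were 9.32, 9.36 and 9.42 in large tumors and 10.35 and 10.91 in small replicates 1 and 3, with small replicate 2 between them (mean 10.59 ± 0.29, SD, n = 3). The groups did not overlap, and large tumors were close to each other, with an SD of 0.05. H2-T23 had a log2 fold change of -1.22 ± 0.16 (SE, n = 3 per group; limma, adjusted p = 0.0324). All 3 H2-T23 probes were called lower over all probes, at -1.44, -1.20 and -1.22 (adjusted p = 0.025 to 0.032).

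H2-Q7 encodes Qa-2, a chain that reaches the surface with a lipid anchor. Its log2 signals were 7.81, 7.89 and 7.93 in large tumors and 8.69, 9.05 and 9.34 in small tumors, with no overlap. H2-Q7 had a log2 fold change of -1.15 ± 0.17 (SE, n = 3 per group; limma, adjusted p = 0.0374). A further H2-Q7 probe was detected on 0 large arrays and 1 small array and was not tested. The H2-Q genes are near-identical copies of each other, and the probe sequences were not used here, so a signal named for one may hold RNA of another.

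H2-M3 encodes a chain that presents formylated peptides of bacteria and mitochondria. Its log2 signals were 7.0, 6.92 and 6.90 in large tumors and 7.75, 7.33 and 7.80 in small tumors. Here small replicate 2, not small replicate 1, was the lowest of its group, and the groups did not overlap. The log2 fold change was -0.68 ± 0.15 (SE, n = 3 per group), with a 95% confidence interval from -1.04 to -0.33 and an adjusted p of 0.0652 in limma.

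B2m, the light chain that all these heavy chains need, had log2 signals of 13.49, 13.35 and 13.78 in large tumors and 13.65, 14.14 and 14.24 in small tumors. The groups overlapped, as small replicate 1 lay below large replicate 3. The log2 fold change was -0.48, with a 95% confidence interval from -0.94 to -0.01 (limma, adjusted p = 0.21, n = 3 per group). Its second probe was at -0.52 (adjusted p = 0.202 over all probes), so both probes gave about the same value. This interval alone does not show that B2m differed from the heavy chains.

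The change of each gene was therefore also set against B2m within each array, a comparison chosen after seeing the data. It removes any factor that scales a whole array, and it shows only unequal change. Log2 signals of Tap1 minus those of B2m were -6.83, -6.80 and -6.68 in large tumors and -5.60, -5.29 and -4.89 in small tumors, a difference of -1.51. Tap2 differed by -1.34 and H2-K1 by -0.92 relative to B2m, H2-T23 by -0.74 and H2-Q7 by -0.67. H2-D1 differed by -0.17, H2-M3 by -0.21 and Tapbp by 0.11. Some of these values moved with the processing: H2-K1 was at -0.53 with the mean of a gene's probes, Tap1 at -0.89 and H2-Q7 at -0.42 with quantile normalization alone, and H2-D1 at -0.06 with scaling to the 75th percentile. The groups did not overlap in 6 of the 8 genes, where 1.43% of all genes had every large tumor below every small tumor relative to B2m. The exceptions were H2-M3 and Tapbp. For the 6 genes the two-sided exact permutation p was 0.1, the smallest that 3 against 3 arrays allows (0.133 adjusted over the 8 comparisons), so none can pass a threshold of 0.05.

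**Figure D2:**
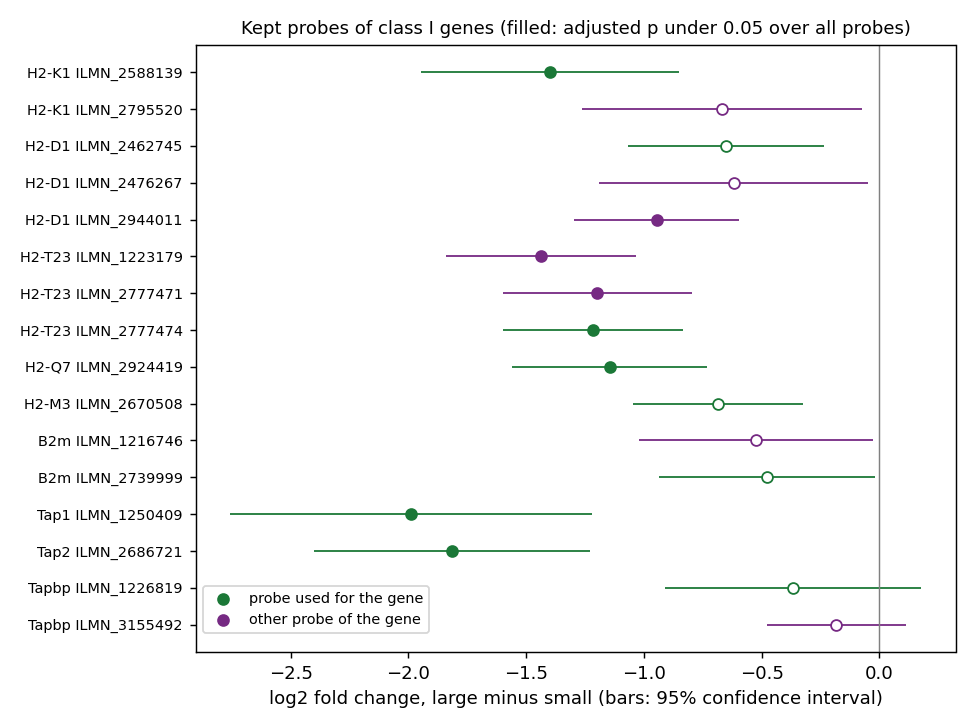
Log2 fold change, large minus small, of the 16 kept probes of the 9 genes, with 95% confidence intervals from limma across all probes (n = 3 per group). Filled points passed an adjusted p under 0.05, and green marks the probe used for the gene. All 16 points lie below 0, and the Tap1 and Tap2 points lie farthest to the left.

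Of the 17 probes named for these genes in the authors' processed set, 16 were kept and 1 was not detected on enough arrays. All 16 had a negative log2 fold change, and 8 were called lower in limma across 19120 probes, where 1.64% of all probes were. The 8 were all 3 probes of H2-T23 and 1 each of H2-K1, H2-D1, H2-Q7, Tap1 and Tap2. Different probes of one gene share its RNA and are no replicates of the comparison.

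Within the groups the genes kept a common pattern over the arrays. Small replicate 3 was the highest small tumor in 9 of 9 genes, and small replicate 1 the lowest in 7. Large replicate 3 was the highest large tumor in 8 of 9 genes, and large replicate 2 the lowest in 5. The share of all genes with these orders was not computed, so whether the pattern is particular to the class I genes was not tested. Averaged over the 9 genes after centring each on its mean over the 6 arrays, log2 values were -0.62, -0.64 and -0.36 in large tumors and 0.21, 0.56 and 0.85 in small tumors. H2-Q7 lay nearest to this average, with a root-mean-square difference of 0.08 log2 units over the 6 arrays, and Tap1 farthest, with 0.50, as its range was wider.

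Small replicate 1 was the dimmest array, and this bears on the deposited signals. Its 95th percentile of signal was 949, against 1477 to 1997 on the other arrays. In 7 of the 9 genes its signal before normalization lay below those of all 3 large tumors. For H2-K1 the deposited signals were 549, 538 and 592 in large tumors and 495, 1263 and 1281 in small tumors. Small replicates 2 and 3 were above every large tumor in 8 of the 9 genes before any normalization, the exception being Tapbp. Without small replicate 1 the same 5 genes were called, with larger falls of 2.34 for Tap1 and 1.66 for H2-K1 on the log2 scale.

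The 8 genes outside the set whose centred log2 values lay nearest to the average of the 9 genes, by root-mean-square difference over the 6 arrays, were Trim21 (0.08), H2-Q5 (0.09), Parp12 (0.11), Ctsw (0.13), Igfbp5 (0.13), Cxcl10 (0.14), Tmem229b (0.14) and Dtx3l (0.14). They were picked for this likeness in the same values, so their falls follow from the choice and are no separate result. Of the 8 genes, H2-Q5, Parp12, Igfbp5, Tmem229b and Dtx3l were called lower in large tumors, at log2 fold changes from -0.94 to -1.27. Over all genes tested 1.68% were called lower, a share that is no measure for genes picked this way. Trim21 was at -0.96 (limma, adjusted p = 0.0611), Ctsw at -1.13 (adjusted p = 0.0573) and Cxcl10 at -1.02 (adjusted p = 0.0616).

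Other chains of the family did not all move alike. Of 33 listed class I and class I-like chains outside the set, 11 were tested, 2 were called lower, 0 were called higher, and the median log2 fold change was -0.10. Here and for the pathway lists below, the share over all genes tested was 1.68% called lower and 0.789% called higher. H2-Q5 was at -1.20 ± 0.17 and H2-Q6 at -1.09 ± 0.16 (SE, n = 3 per group; limma, adjusted p = 0.0351 for both). Split by locus after their values were seen, all 5 tested chains with H2 symbols had every large tumor below every small tumor, as 13.6% of all genes did, and 0 of the other 6 did. Of those 6, Hfe of iron metabolism was at 0.45 (limma, adjusted p = 0.175) and the antibody receptor Fcgrt at 0.27 (adjusted p = 0.264). Both were named after their values were seen, and neither was called.

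Among the chaperones that fold and load class I molecules, 1 rose. Calr, calreticulin, which holds newly assembled class I molecules in the loading complex, had log2 signals of 9.46, 9.65 and 9.63 in large tumors and 8.68, 8.84 and 8.95 in small tumors. It rose in large tumors by 0.75 ± 0.12 on the log2 scale (SE, n = 3 per group; limma, adjusted p = 0.0379). Its call was lost whichever single array was left out, with log2 fold changes of 0.68 to 0.82. Of 6 tested chaperones 1 was called higher and 0 were called lower, and the median log2 fold change was 0.42. Values were above 0 for 5 of the 6. Tapbpl went the other way, at -0.95 (limma, adjusted p = 0.149), and was not called. Calreticulin serves the folding of many secreted proteins besides class I.

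Among the peptide-generating proteasome subunits and activators, 4 of 7 were called lower and the median log2 fold change was -0.82. Psmb9, Psmb8 and Psmb10 are the interferon-induced subunits that replace constitutive ones. On the log2 scale they fell by 2.49 ± 0.26, 1.62 ± 0.13 and 1.30 ± 0.11 (SE, n = 3 per group; limma, adjusted p = 0.0161 to 0.0181). Psme1, a subunit of the proteasome activator PA28, fell by 0.82 ± 0.11 on the log2 scale (adjusted p = 0.0328). Of 4 tested peptidases that trim peptides, 0 were called in limma. An unadjusted p under 0.05 was found for 1 of them, and for 2371 of all 10523 genes tested. The smallest p was that of Tpp2, at -0.44 (adjusted p = 0.117), followed by Blmh at -0.15 (adjusted p = 0.702).

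Of 12 tested transcription regulators of class I genes, 3 were called lower, with a median log2 fold change of -0.52. Nlrc5, the class I coactivator, had log2 signals of 6.54, 6.03 and 6.83 in large tumors and 7.80, 8.55 and 8.76 in small tumors. It fell by 1.90 ± 0.30 on the log2 scale (SE, n = 3 per group; limma, adjusted p = 0.0381). On the same scale Irf1, which binds interferon response elements, fell by 1.87 ± 0.26 (adjusted p = 0.0324). Irf8, a factor of myeloid and dendritic cells, fell by 1.51 ± 0.13 on that scale (adjusted p = 0.0161).

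Of 5 tested genes of the interferon-gamma receptor pathway, 0 were called in limma. An unadjusted p under 0.05 was found for 3 of them, not all in the same direction, and for 2371 of all 10523 genes tested. The receptor chains Ifngr2 and Ifngr1 had log2 fold changes of -0.55 (adjusted p = 0.094) and 0.54 (adjusted p = 0.145). Ifng itself was not tested here. Over all 45 tested pathway genes outside the set, 9 were called lower and 1 higher, where 1.68% and 0.789% of all genes tested were. Leaving out large replicate 1, large replicate 3 or small replicate 3 left 0 of them called, and without large replicate 2 only Psmb8, Psmb10 and Irf8 were called. Without small replicate 1 or small replicate 2 the count lower was 9, with Tapbpl in place of H2-Q6 in the former and Stat2 in place of Nlrc5 in the latter. These lists were chosen with results of the same data known, and their counts are descriptions.

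**Figure D3:**
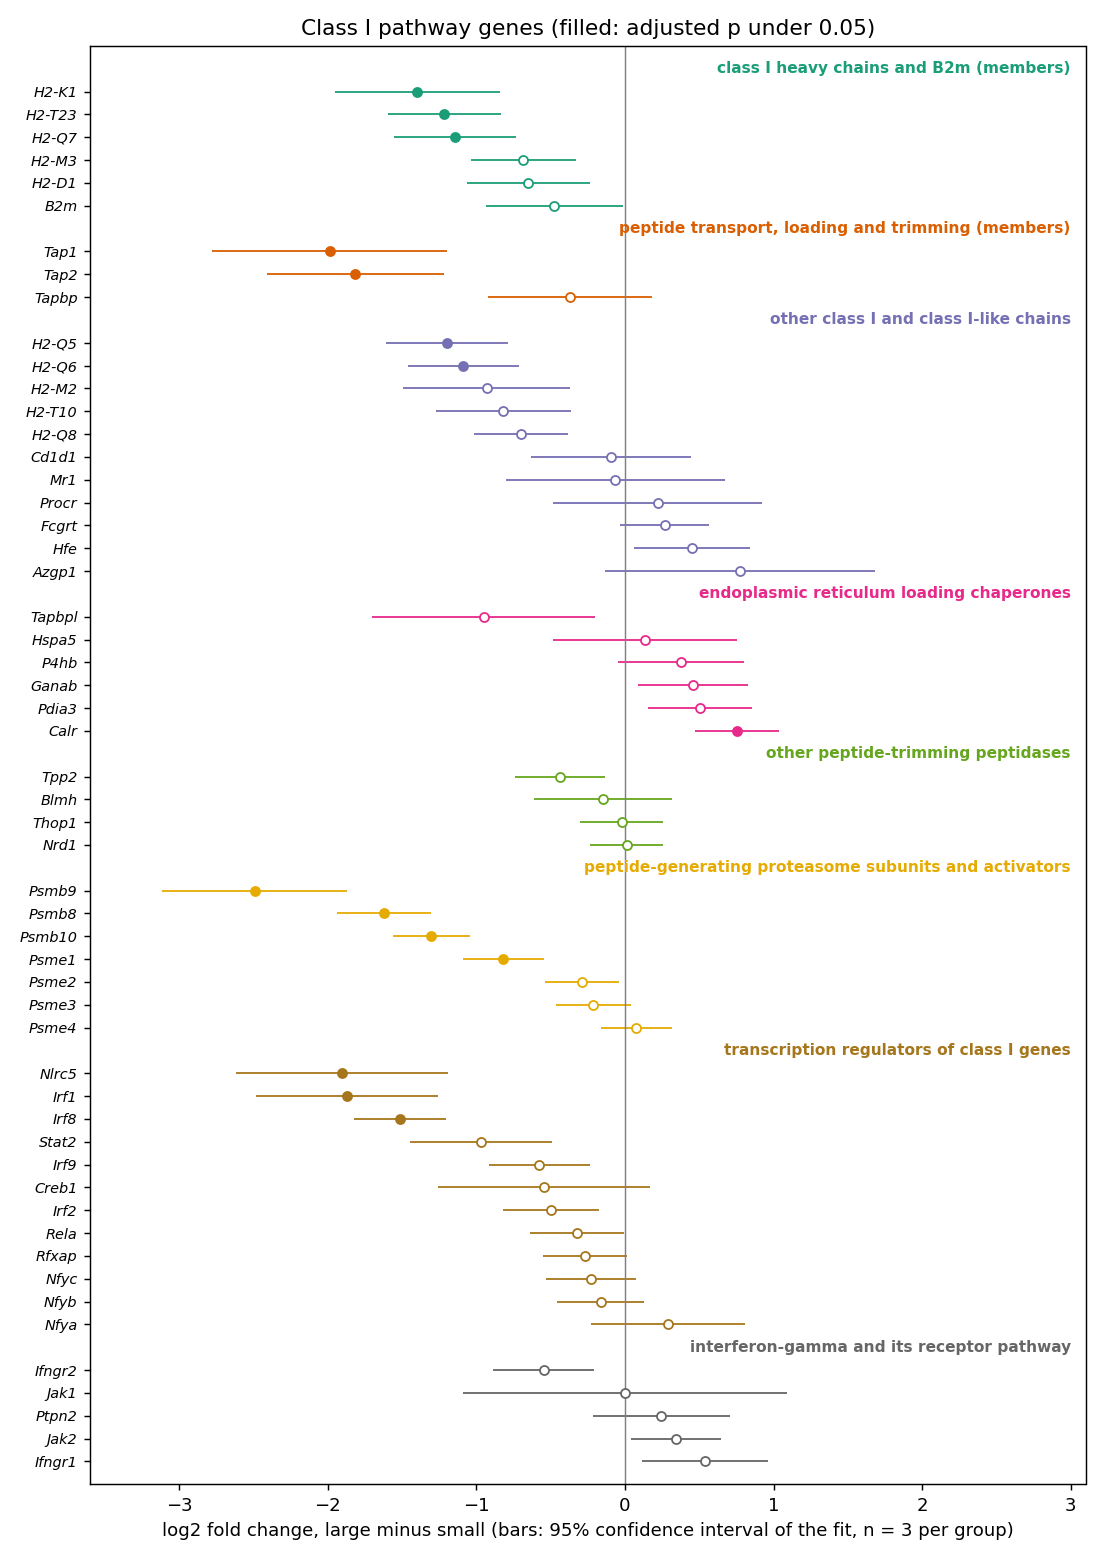
Log2 fold change, large minus small, of class I pathway genes by role, with 95% confidence intervals (limma, n = 3 per group) and filled points at an adjusted p under 0.05. Filled points to the left include the transporter, immunoproteasome, Nlrc5 and Irf1, and the only filled point to the right is Calr at 0.75.

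Markers of the cells in the samples were set beside these values, as sums of linear normalized signals over the tested genes of each list. For the counts of called markers, the share over all genes tested was 1.68% called lower and 0.789% called higher. All 10 melanocyte and B16 markers, among them Pmel, Tyr, Tyrp1, Dct and Mlana, were detected on every large array, 0 were called, and their sum was 115134 to 122078 in large and 104766 to 111822 in small tumors. The label of B16 melanoma was thus borne out by its markers. Of 4 tested leukocyte markers 1 was called lower, and their sum was 5939 to 8384 in large and 9705 to 16185 in small tumors. Among the small tumors, small replicate 1 had the highest leukocyte, NK, macrophage and dendritic cell sums and the lowest T cell and keratinocyte sums.

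Of 7 tested T cell markers 4 were called lower. Among the 4, Cd2 and Zap70 were not detected on any large array and passed the detection filter only through the small tumors. Their calls are thus not independent of that filter. The sum of the 7 markers was 2460 to 2800 in large and 2225 to 2889 in small tumors. Cd8b1 made up most of it and was at 0.25 (limma, adjusted p = 0.335). Without Cd8b1 the sum was 190.3 to 239 in large tumors and 449, 782 and 521 in small replicates 1 to 3. Of 4 tested NK and cytotoxic lymphocyte markers 2 were called lower, and their sum was 720 to 1247 in large and 1407 to 1886 in small tumors. Of 10 macrophage and monocyte markers 1 was called lower, and their sum overlapped between the groups, at 6376 to 9008 in large and 8154 to 13292 in small tumors. Of 4 dendritic cell markers 1, Siglech, was called lower. It was not detected on any large array and also passed the filter only through the small tumors. The sum of the 4 markers was 151 to 180.1 in large and 221 to 278 in small tumors. Leaving out any 1 large tumor or small replicate 3 left 0 of these immune markers called. The part of these cells in the class I values was not tested.

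Of 12 skeletal muscle markers 11 were called lower, and their sum was 11340 to 16114 in large and 34811 to 49749 in small tumors. Leaving out large replicate 1 or large replicate 3 left 0 of these called, and leaving out small replicate 3 left 1. The part of muscle in the class I values was not tested. Keratinocyte markers differed widely within groups, with sums of 425 to 41750 in large and 235 to 33434 in small tumors, and 0 of 8 were called. The lowest sum of the small tumors was that of small replicate 1 and the lowest of the large tumors that of large replicate 3. Of 6 fibroblast and 6 endothelial markers 0 were called. The sums were 2485 to 4230 and 2697 to 4164 in large, and 2424 to 3846 and 3011 to 4037 in small tumors. The single tested B cell marker and both tested adipocyte markers were not called.

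**Figure D4:**
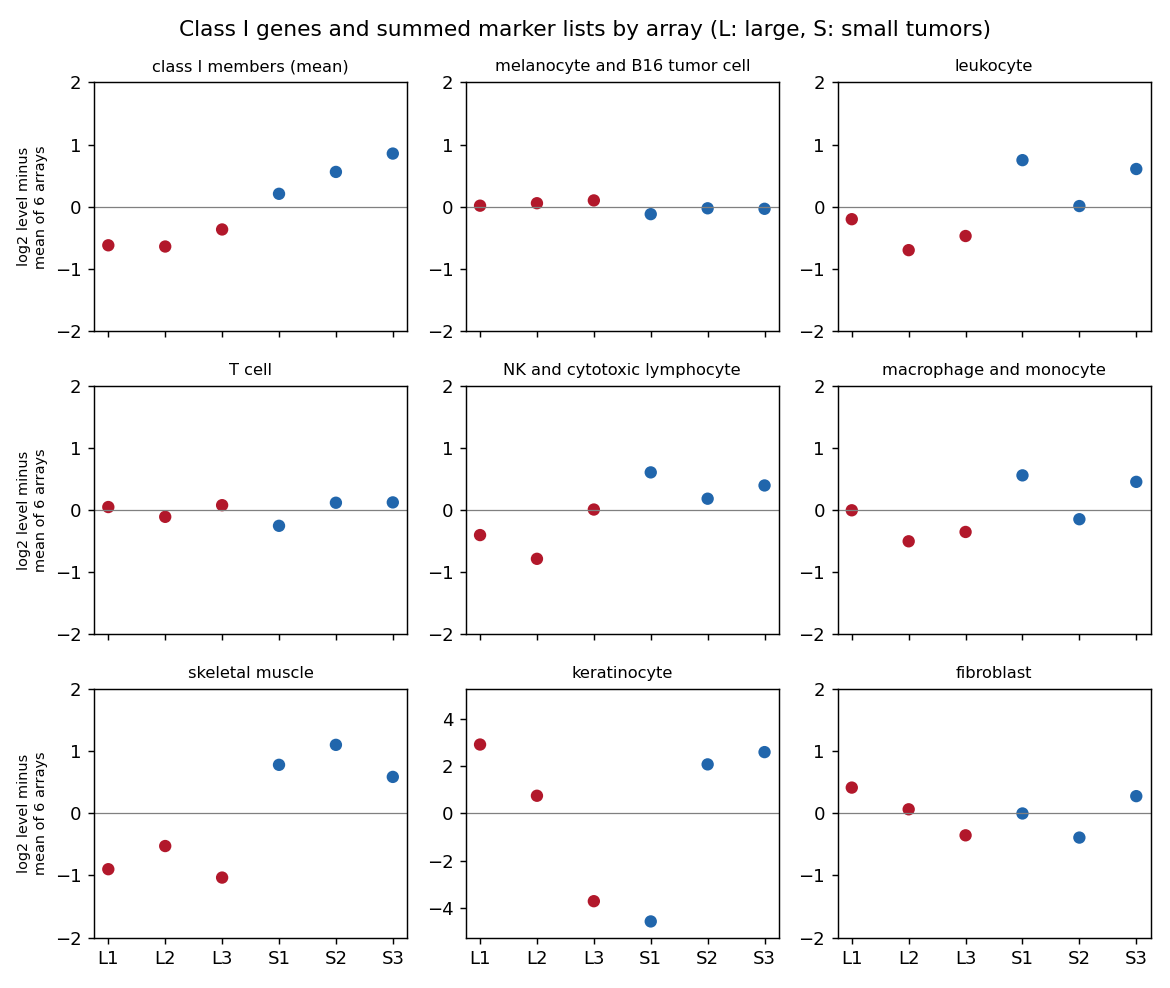
Mean centred log2 value of the 9 class I genes and log2 summed signal of 8 marker lists on each array, each minus its mean over the 6 arrays (red, large tumors; blue, small tumors). The keratinocyte panel has a wider axis. Class I, leukocyte, NK and muscle values are lower in every large tumor, melanocyte values are slightly higher, and the groups overlap in the T cell, macrophage, keratinocyte and fibroblast panels.

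**Figure D5:**
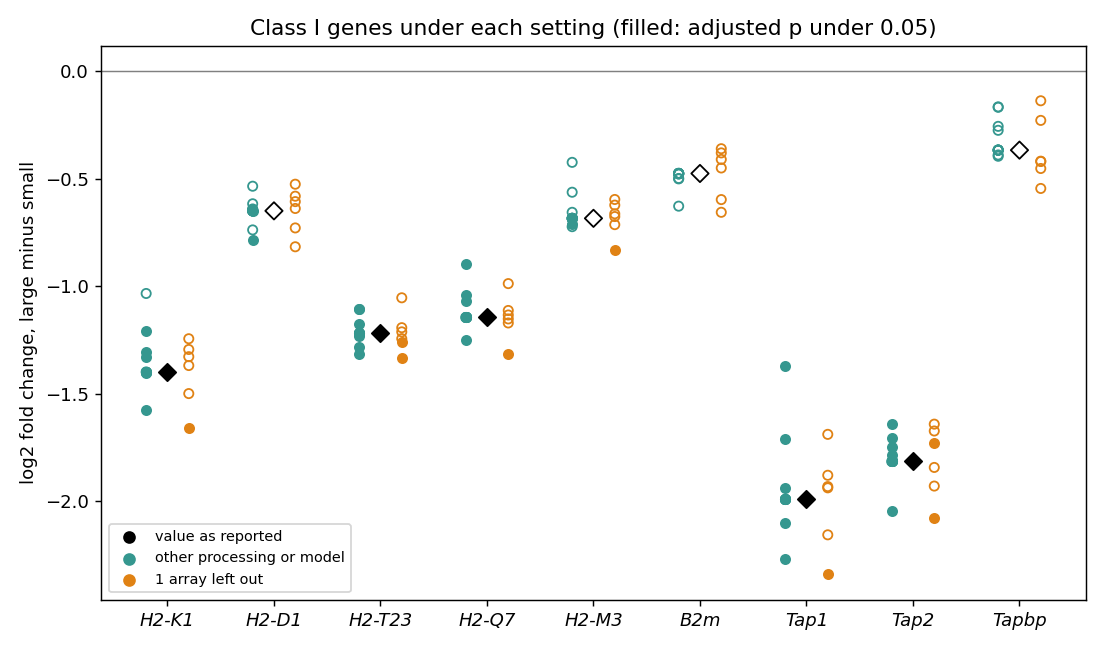
Log2 fold change of the 9 class I genes as reported (black), under other processing or models (teal) and with 1 array left out (orange), filled where the adjusted p was under 0.05. Every value lies below 0, and most orange points are open.

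Under 18 other settings all 9 genes had negative log2 fold changes in every one. Over these settings Tap1 ranged from -2.34 to -1.37 and Tap2 from -2.07 to -1.64, and each was called in 13 of 18. H2-T23 ranged from -1.34 to -1.05 and was called in 14, H2-Q7 from -1.31 to -0.89 and was called in 12, and H2-K1 from -1.66 to -1.03 and was called in 11. H2-M3 was called in 4 and H2-D1 in 2, while B2m (-0.66 to -0.36) and Tapbp (-0.55 to -0.14) were called in 0 (lowest adjusted p 0.0804 and 0.249).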

How the data were processed

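RNA of 6 tumors was amplified and biotin-labelled and hybridised to Illumina bead arrays, per the labels' protocols. The deposited signals are intensity, the mean bead brightness per probe, and GenomeStudio is named in the submitters' processing notes. Detection p-values accompany the signals, per the file headers. For 20346 of the 45281 probes the authors also deposited processed intensity values. How these were made is not given in the sources used here, and they served as an alternative.

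The neqc function of limma (version 3.58.1, run in R 4.3.3) processed the signals (background from detection p-values, offset 16, quantile normalization, log2). A probe was kept if its detection p-value was below 0.05 on 3 or more arrays, which 19120 were. Names came from the platform annotation of the probes in the authors' processed set, checked by Entrez identifier against RefSeq (GRCm38.p6). Other probes had no name and entered only the fit across probes. For 10523 genes the probe with the highest mean was tested with limma, group as the only term, with p-values adjusted (Benjamini-Hochberg) over all genes. An adjusted p below 0.05 was the threshold for a call. On data simulated for this comparison over 10523 genes, 55% of genes changed by 1 log2 unit and 95% of those changed by 2 were called, with 8 false calls in all. The simulation drew genes independently, with equal spread in both groups and no pattern shared over arrays. These rates need not hold for the real data, where genes shared such patterns. Intensities carry no counts, and the number of arrays limits the precision.

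Named genes were the 10 members, called genes of each pathway list (or the 2 with the smallest p) and the 8 most alike. Hfe, Fcgrt, Tapbpl, Stat2 and the markers named fall outside this rule and were chosen after their values were seen. Members and lists were chosen with earlier results of these data known. No protein sequences were used here.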

Additional observations from a re-analysis of the deposited data

How the results depend on the processing

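The count of called genes was 260, 408 when quantile normalization was run without background correction, 407 with scaling to the 75th percentile, 402 with detection on all 6 arrays, 656 with a trended and robust prior, 574 with array weights and 109 with the replicate block. With 1 array left out it lay between 0 and 300. For the 0 calls without large replicate 1 or large replicate 3, limma gave 2303 and 1591 genes at an unadjusted p under 0.05. The count of class I genes called lower was 5, lay between 0 and 5 with 1 array left out, and was 2 with the replicate block. With 1 array left out, 7 to 8 class I genes had an unadjusted p under 0.05 in limma, as did 1591 to 2600 of all 10523 genes. The median log2 fold change of the tested class I genes was -1.15. It was -0.89 when quantile normalization was run without background correction, and -1.31 to -0.99 with 1 array left out. Of the kept probes of these genes 8 were called lower, 2 with the replicate block, 0 to 8 with 1 array left out, and 0 with no detection filter. Without that filter 45281 probes were tested, 36 were called and 14 of the class I probes had an unadjusted p under 0.05 in limma. The share of all probes at that unadjusted p was not computed. Same-numbered tumors did not deviate together (correlation of deviations from the group means across genes -0.55, -0.07 and -0.45). Between tumors of unlike number it ran from -0.33 (large replicate 2 with small replicate 3) to 0.57 (large replicate 1 with small replicate 3). With 3 arrays per group these values cannot show whether tumors of one number shared a batch. No class I gene changed the sign of its own log2 fold change in the 18 alternatives run. Relative to B2m and over 12 alternatives, the difference lay between -1.68 and -0.89 for Tap1, -1.42 and -1.16 for Tap2, -1.0 and -0.53 for H2-K1, -0.85 and -0.63 for H2-T23, -0.77 and -0.42 for H2-Q7 and -0.24 and -0.06 for H2-D1. It changed sign for H2-M3 (-0.42 to 0.05) and Tapbp (-0.04 to 0.33). The cause of these shifts was not tested.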
